A study of Homo sapiens with 8 samples.

Results

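The exon junction complex genes were described here across the libraries of a study that depleted or overexpressed UPF1, the RNA helicase at the centre of nonsense-mediated mRNA decay (NMD). The members were chosen by symbol, as the genes for the core, the peripheral and the disassembly proteins of the complex, and all 10 (EIF4A3, MAGOH, MAGOHB, RBM8A, CASC3, RNPS1, ACIN1, PNN, SAP18 and PYM1) were found among the 17076 genes listed. All 8 libraries were mRNA from Huh7, an established human hepatocellular carcinoma cell line, and they formed 4 groups of 2. siControl cells received a scrambled siRNA and siUPF1 cells an siRNA against UPF1, whereas MYC cells received a control vector with the MYC epitope tag and MYC-UPF1 cells a vector for UPF1 carrying that tag. siUPF1 was set against siControl and MYC-UPF1 against MYC, so the 2 comparisons share no library. The sources used here do not name which siRNA against UPF1, or which plasmid, the sequenced cells received. All groups came from 1 cell line and no source used here says whether libraries of a group came from separate cultures. The p-values therefore measure only the spread between these libraries, which may be technical.

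The exon junction complex is a group of proteins that the spliceosome leaves on mRNA a short distance upstream of each joined pair of exons. It travels with the mRNA to the cytoplasm, takes part in export, splicing and translation, and is removed by the first translating ribosome. A complex that remains downstream of a stop codon is a known signal for NMD, because it reaches UPF1 through UPF3B and UPF2. EIF4A3, a DEAD-box ATPase, clamps the RNA, and the heterodimer of MAGOH (or its close copy MAGOHB) and RBM8A, also called Y14, locks that clamp. CASC3 (Barentsz or MLN51) also binds EIF4A3 and RNA. RNPS1 and SAP18 form the peripheral ASAP complex with ACIN1 (Acinus) or the PSAP complex with PNN (Pinin). PYM1 binds MAGOH and RBM8A and takes part in removing the complex.

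The values were FPKM, fragment counts divided by exon length and by library size, so that levels of different genes can be set side by side. Summed FPKM ranged from 403902 to 455592 per library, and sequencing depth and counting error are unknown because the tables hold no counts. All 10 hepatocyte and hepatoma markers looked up, among them ALB and AFP, were listed at 15.6 to 12505 FPKM. Of 10 markers of blood, endothelial and stromal cells, 3 were listed, at 0.331 to 3.84 FPKM. UPF1 stood at 44.5 and 47.4 FPKM in siControl and at 20.7 and 21.9 FPKM in siUPF1 (log2 fold change -1.07, SE 0.0928, limma, Benjamini-Hochberg adjusted p = 0.0308). It stood at 45.1 and 57.4 FPKM in MYC and at 2835 and 2484 FPKM in MYC-UPF1 (log2 fold change 5.68, SE 0.110, limma, adjusted p = 8.91e-09). The overexpression libraries grouped across their labels: over all genes tested, MYC 1 correlated with MYC-UPF1 2 at r = 0.9969 and MYC 2 with MYC-UPF1 1 at r = 0.9964, above the 0.9944 between both MYC libraries and the 0.9941 between both MYC-UPF1 libraries. Several members followed this crossed grouping, as their values below show. Among the siRNA libraries, siControl 2 correlated with siUPF1 1 at r = 0.9935, above the 0.9916 between both siUPF1 libraries. Both siControl libraries correlated at 0.9952, and siControl 1 with siUPF1 2 at 0.9858.

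MAGOH and MAGOHB encode nearly the same protein from different chromosomes, so it matters for the values below how well their mRNAs can be told apart. MAGOH lies on the minus strand at chr1:53692572-53704190 and MAGOHB on the minus strand at chr12:10756792-10766208 (GRCh37, the build of the authors' alignment, with GENCODE release 44 annotation), and each has 5 exons. Over the 438 aligned coding bases they differed at 58, so 86.8% were identical, and the longest run they shared was 38 bases. The 30-base coding stretches with the most and the fewest differences are shown 5′ to 3′, with capitals at the bases that differ between both genes. In the most different pair, both from exon 1, MAGOH is read from chr1:53704088-53704117 and MAGOHB from chr12:10766093-10766122, both on the minus strand, with 8 differences.
MAGOH, exon 1: gAGagTgaCttTtaTctgcgTtactacgtG
MAGOHB, exon 1: gCTagCgaTttCtaCctgcgCtactacgtA
In exon 5 both genes hold the same 30 bases, at chr1:53692729-53692758 in MAGOH and chr12:10758886-10758915 in MAGOHB, again on the minus strand.
MAGOH and MAGOHB, exon 5: ttcagtcttattggattacacttcaagatt
Across the whole canonical transcripts, 24 of the 632 windows of 25 bases in MAGOH also occurred in MAGOHB, and no window of 50 bases (0 of 607) was shared. Reads were 100 bases long before trimming, so no full-length read matches both canonical transcripts exactly. How the authors' counting treated shorter or mismatched reads that fit both genes is not given in the sources used here, and the split between both genes carries that uncertainty.

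All 10 members were well expressed in Huh7 cells. RNPS1, a splicing activator of the peripheral complexes, stood highest at a mean of 59.6 FPKM over the 8 libraries (range 55.0 to 63.7), followed by PNN at 54.6 (45.4 to 61.1), MAGOH at 52.4 (47.6 to 58.2), ACIN1 at 46.4 (39.0 to 54.8) and EIF4A3 at 40.1 FPKM (35.5 to 43.8). Each of these genes overlapped its neighbour in the order, so the order of neighbours is not settled by these libraries. Farther apart in the order, RNPS1 lay wholly above ACIN1 and EIF4A3, and PNN and MAGOH lay wholly above EIF4A3. PYM1 at 28.8, SAP18 at 28.4 and RBM8A at 28.0 FPKM formed a middle group whose ranges overlapped one another but lay wholly below that of EIF4A3. CASC3, with a mean of 22.8 FPKM, lay below RBM8A in every library, and MAGOHB, at 8.86 FPKM, lay below CASC3. Of the 9 pairs of neighbours in this order, 3 did not overlap: EIF4A3 and PYM1, RBM8A and CASC3, and CASC3 and MAGOHB. Even the lowest member, MAGOHB, ranked at the 66.7 percentile of listed genes by mean FPKM, and RNPS1 at the 94.3 percentile.

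**Figure D1:**
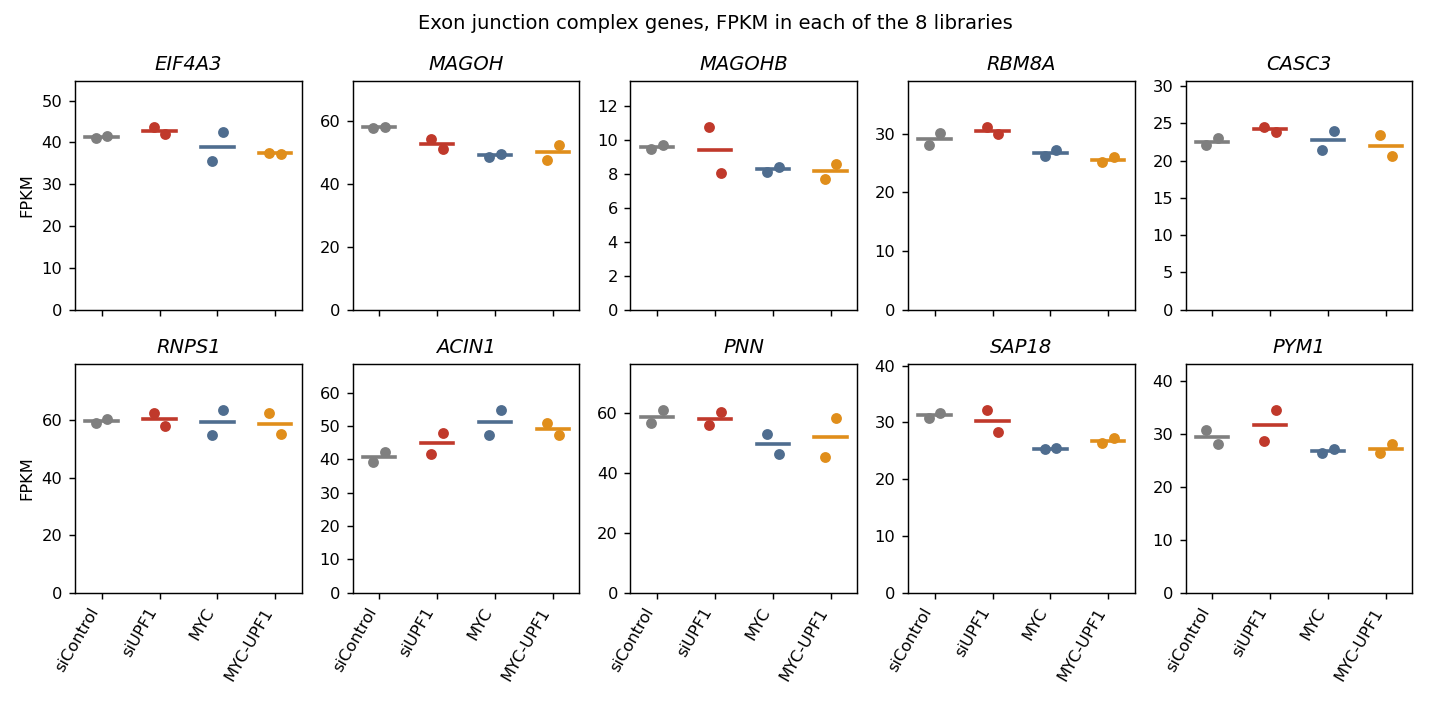
FPKM (vertical axis, from 0, with its own scale in each panel) of the 10 exon junction complex genes in the 4 groups (horizontal axis), with 1 point per library and a line at the mean of each group of 2. The points of each gene lie close together, for RNPS1 between 55.0 and 63.7 FPKM and for MAGOHB between 7.72 and 10.8 FPKM.

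The members also differed little between libraries. The highest library stood at 1.16 times the FPKM of the lowest for RNPS1, the steadiest member by this ratio, and at 1.40 times for ACIN1 and MAGOHB. The SD of log2(FPKM + 1) over the 8 libraries ranked RNPS1 at the 7.31 percentile and CASC3 at the 9.19 percentile of 13412 genes, whereas PNN, at the 51.6 percentile, was close to the middle. The members varied in different ways across libraries. With the mean of each experiment taken out, the median Pearson correlation across the 8 libraries was 0.0168 over the 45 pairs of members, with 10 pairs above 0.5 and 9 pairs below -0.5. These values are a description over 8 libraries that share their treatments and normalization. Pairs of other genes were not counted in this way, so the counts cannot be read as a trait of the complex. CASC3 and RNPS1 were the most alike pair (r = 0.850), and RNPS1 and PNN, which can sit in the same peripheral complex, were the most opposed (r = -0.855). In the plasmid libraries these genes followed the crossed grouping, CASC3 and RNPS1 in the same order and PNN in the opposite one. How much of these correlations comes from that grouping was not tested. The genes outside the list that followed a core member most closely, among 7235 protein-coding genes with a mean of at least 5 FPKM, were CHCHD2 (r = 0.989), PDPK1 (0.978) and RPP21 (0.976) for EIF4A3, ACBD5 (0.984), SULT2A1 (0.984) and SLC25A32 (0.983) for MAGOH, and METAP1D (0.953), PAPSS1 (0.939) and GINS3 (0.939) for RBM8A, each a Pearson correlation over 8 libraries computed in the same way. Without taking out that mean, 1 of the 3 genes remained among the closest 3 for each of these members, and PDPK1 and PAPSS1 followed their member at r = 0.444 and 0.175. Picking the highest of 7235 correlations over 8 libraries favours high values, and shared regulation was not tested.

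Depletion of UPF1 moved none of the 10 members past the test. The comparison asks how the mRNAs of the complex that marks NMD substrates behave when the central NMD factor is lowered. With limma on log2(FPKM + 1), 0 of 10 members passed an unadjusted p of 0.05, the level given in the study's methods, and 0 passed a Benjamini-Hochberg adjusted p of 0.05, whereas 21.5% of the 13535 genes tested passed the unadjusted level (16% higher, 5.51% lower) and 0.0369% the adjusted one. The lowest unadjusted p among the members was 0.175, and adjusted p-values ran from 0.402 to 0.954. Both siUPF1 libraries lay above both controls for 2 members (EIF4A3 and CASC3) and below both for 1 (MAGOH), and the groups overlapped for 7, where the groups of 56% of all genes tested did not overlap (37.5% above, 18.5% below). The median log2 fold change of the members was 0.031, beside 0.057 over all genes tested, and the median size of the change regardless of sign was 0.058, beside 0.145 over all genes. The 95% confidence intervals of the members together spanned log2 fold changes of -0.36 (for MAGOHB) to 0.39 (for ACIN1), or 0.780 to 1.31 times the control. SEs ran from 0.0890 to 0.135, and a change inside a member's own interval could not be resolved. In bulk RNA, a change in some of the cells cannot be told apart from a smaller change in all of them.

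In the core, EIF4A3 stood at 41.0 and 41.6 FPKM in siControl and at 43.8 and 41.9 FPKM in siUPF1. The treated libraries lay just above the controls, and the log2 fold change was 0.051 (SE 0.0890, 95% CI -0.16 to 0.26, limma adjusted p = 0.757). MAGOH was the member with the lowest p. It stood at 57.8 and 58.2 FPKM in siControl and at 54.3 and 51.1 FPKM in siUPF1, which put both treated libraries below both controls. The log2 fold change of MAGOH was -0.14 (SE 0.0904, 95% CI -0.35 to 0.078, limma adjusted p = 0.402), larger than its SE but with an interval that included 0. Its copy MAGOHB stood at 9.51 and 9.71 FPKM in siControl and at 10.8 and 8.04 FPKM in siUPF1, with the 2 treated libraries on opposite sides of the controls. RBM8A, the partner of both, stood at 28.2 and 30.1 FPKM in siControl and at 31.2 and 29.9 FPKM in siUPF1, with overlapping groups and a log2 fold change of 0.066 (95% CI -0.15 to 0.28). CASC3 stood at 22.0 and 23.0 FPKM in siControl and at 24.5 and 23.9 FPKM in siUPF1. Both treated libraries of CASC3 lay above the controls, at a log2 fold change of 0.10 (SE 0.0893, 95% CI -0.11 to 0.31, limma adjusted p = 0.526).

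Among the peripheral members, RNPS1 stood at 59.1 and 60.6 FPKM in siControl and at 62.5 and 58.1 FPKM in siUPF1, so the treated libraries enclosed the controls. The log2 fold change of RNPS1 was 0.011 (95% CI -0.21 to 0.23). ACIN1, a nuclear protein first known from apoptotic chromatin condensation, stood at 39.0 and 42.1 FPKM in siControl and at 41.7 and 47.8 FPKM in siUPF1, with overlapping groups. Its log2 fold change of 0.14 had the highest upper bound of the members (SE 0.105, 95% CI -0.11 to 0.39). PNN stood at 56.6 and 61.1 FPKM against 56.0 and 60.3 FPKM, and SAP18 at 30.8 and 31.7 FPKM against 32.2 and 28.3 FPKM, so for neither gene were the groups apart. PYM1, the disassembly factor, stood at 30.7 and 28.2 FPKM in siControl and at 28.7 and 34.6 FPKM in siUPF1, and its log2 fold change was 0.096 (95% CI -0.18 to 0.37).

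The count rested in part on siUPF1 1. Without siUPF1 1, 3 of 10 members passed an unadjusted p of 0.05: MAGOHB at -0.23 on the log2 scale (adjusted p = 0.0816 in limma), ACIN1 at 0.23 (adjusted p = 0.0825) and PYM1 at 0.23 (adjusted p = 0.0925). In that fit 43.7% of all genes passed the same level, and the lone siUPF1 library was assumed to vary like the controls. With siControl 1, siControl 2 or siUPF1 2 left out, 0 of 10 members passed, beside 10.7%, 12.6% and 21.7% of all genes.

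Overexpression of MYC-UPF1 likewise left all 10 members short of the test. None passed an unadjusted p of 0.05 in limma (0 of 10, the lowest p being 0.418), beside 1.43% of the 13251 genes tested (0.619% higher, 0.807% lower), and 0 passed the adjusted level, beside 0.00755% of all genes. All adjusted p-values of the members were 1.00. The groups did not overlap for 2 members, SAP18 above and RBM8A below the controls, where the groups of 20.7% of all genes did not overlap (8.88% above, 11.8% below). The median log2 fold change was -0.015 for the members and -0.014 for all genes, and the median size regardless of sign was 0.048 and 0.058. The confidence intervals together spanned -0.28 to 0.33, or 0.821 to 1.26 times the control, while UPF1 itself stood at 2835 and 2484 FPKM in the treated libraries.

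SAP18, which binds RNPS1 in both peripheral complexes, stood at 25.3 and 25.5 FPKM in MYC and at 26.3 and 27.3 FPKM in MYC-UPF1 (log2 fold change 0.077, SE 0.0903, limma adjusted p = 1.00). RBM8A stood at 26.2 and 27.3 FPKM in MYC and at 25.2 and 26.0 FPKM in MYC-UPF1 (log2 fold change -0.061, SE 0.0909). Both differences were smaller than their standard errors. For 5 members (RNPS1, CASC3, ACIN1, PNN and EIF4A3) the pair of MYC 1 and MYC-UPF1 2 did not overlap the pair of MYC 2 and MYC-UPF1 1. The share of all genes split in this way was not counted, so the count cannot be read as a trait of the members. RNPS1 stood at 55.0 FPKM in MYC 1 and 55.3 FPKM in MYC-UPF1 2, but at 63.7 FPKM in MYC 2 and 62.4 FPKM in MYC-UPF1 1. CASC3 followed the same order, with 21.4 and 20.6 FPKM in the first pair and 24.0 and 23.4 FPKM in the second, as did ACIN1 with 47.3 and 47.4 FPKM against 54.8 and 50.8 FPKM. PNN showed the opposite order, with 53.1 and 58.4 FPKM in the first pair and 46.3 and 45.4 FPKM in the second. For these 4 genes the libraries of each group lay farther apart than the means of the groups. EIF4A3 stood at 35.5 and 42.5 FPKM in MYC and at 37.6 and 37.2 FPKM in MYC-UPF1, with the treated libraries between the controls. MAGOH at 48.6 and 49.6 against 47.6 and 52.5 FPKM, MAGOHB at 8.11 and 8.43 against 7.72 and 8.60 FPKM, and PYM1 at 26.4 and 27.3 against 26.4 and 28.1 FPKM overlapped as well.

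**Figure D2:**
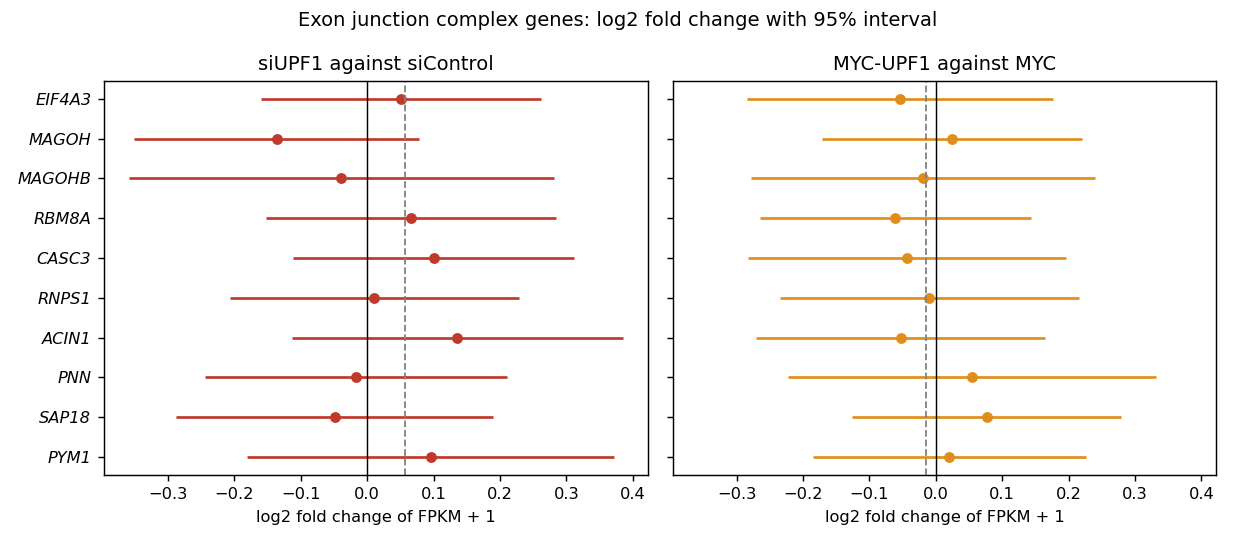
Log2 fold change of each of the 10 members on the log2(FPKM + 1) scale, treated minus control, with 95% confidence intervals from limma, for UPF1 depletion (left) and MYC-UPF1 overexpression (right). The solid line marks 0 and the dashed line the median of all genes tested (0.057 and -0.014). All 20 intervals include 0, and the point estimates run from -0.14 to 0.14 in depletion and from -0.061 to 0.077 in overexpression.

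The depletion effect was then set against the overexpression effect in 1 fit of all 8 libraries. None of the members differed at an unadjusted p of 0.05 (0 of 10 in limma, adjusted p 0.523 to 0.970), beside 15.2% of 13412 genes. The difference, depletion effect minus overexpression effect, ran from -0.16 for MAGOH (SE 0.119, 95% CI -0.43 to 0.10) to 0.19 for ACIN1 (SE 0.148, 95% CI -0.14 to 0.52).

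The parts of the core occur in fixed proportions in the protein complex, so ratios of their mRNA levels within a library were also followed. MAGOHB made up 14.1% and 14.3% of the summed FPKM of MAGOH and MAGOHB in siControl, and 16.6% and 13.6% in siUPF1. In the plasmid libraries that share was 14.3% and 14.5% in MYC and 14.0% and 14.1% in MYC-UPF1. By FPKM, MAGOH was thus the main source in every library. FPKM divides by length, and the canonical transcripts are 656 bases long for MAGOH and 2606 for MAGOHB. The lengths behind the authors' values are not given in the sources used here, and the level of the share depends on them. The share of MAGOHB differed by 0.877 percentage points in depletion (exact permutation test, two-sided, p = 1). In overexpression it differed by -0.396 points (exact permutation test, p = 0.333, the smallest that 2 against 2 libraries can give). The summed FPKM of MAGOH and MAGOHB over that of RBM8A was 2.39 and 2.25 in siControl and 2.09 and 1.98 in siUPF1. It was 2.16 and 2.13 in MYC and 2.19 and 2.35 in MYC-UPF1. The difference in the mean ratio, treated minus control, was -0.289 in depletion and 0.126 in overexpression, without overlap of the groups in either comparison, at the smallest p the exact permutation test allows (0.333 in each). EIF4A3 over RBM8A stayed between 1.35 and 1.56 in all 8 libraries, and EIF4A3 over CASC3 between 1.61 and 1.86. EIF4A1, the paralogue of EIF4A3 that serves translation initiation, stood at 9.87 to 12.01 times the FPKM of EIF4A3.

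**Figure D3:**
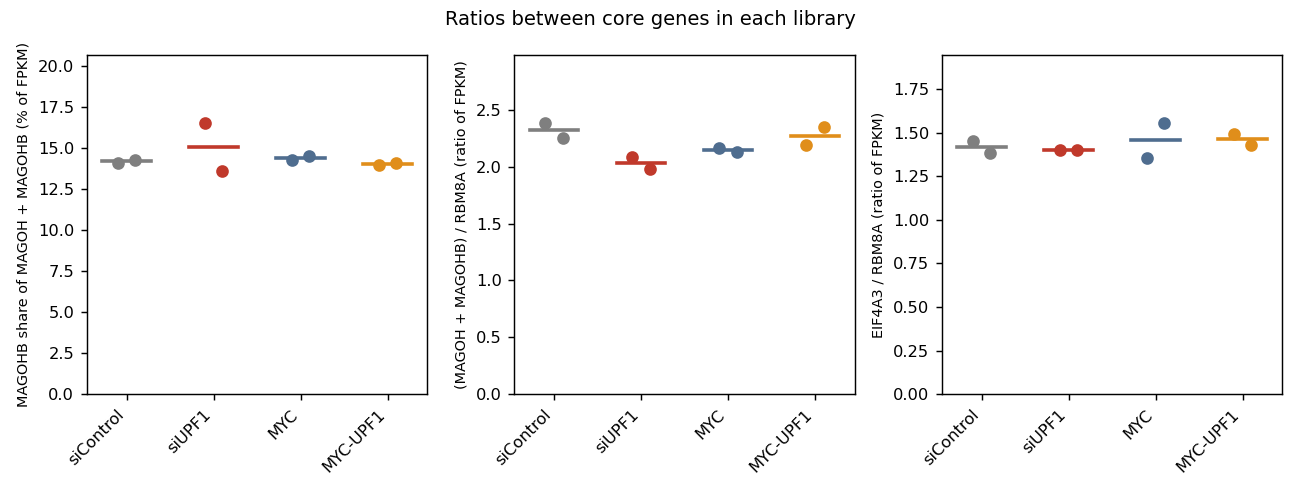
Ratios of FPKM between core members in each of the 8 libraries, with 1 point per library and a line at the mean of each group of 2. The panels hold the share of MAGOHB in percent, the ratio of MAGOH plus MAGOHB to RBM8A, and the ratio of EIF4A3 to RBM8A, all on axes from 0. The share of MAGOHB lies between 13.6% and 16.6%, and the ratio of MAGOH plus MAGOHB to RBM8A is lowest in the siUPF1 libraries at 2.09 and 1.98.

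Across experiments, 3 members were lower in all 4 plasmid libraries than in all 4 siRNA libraries, and 7 overlapped. RBM8A ran from 28.2 to 31.2 FPKM (median 30.03) in the siRNA libraries and from 25.2 to 27.3 FPKM (median 26.1) in the plasmid libraries. SAP18 ran from 28.3 to 32.2 FPKM (median 31.3) against 25.3 to 27.3 FPKM (median 25.9), and PYM1 from 28.2 to 34.6 FPKM (median 29.7) against 26.4 to 28.1 FPKM (median 26.8). Of all genes, 21.4% lay lower and 6.96% higher in all plasmid libraries, so 28.3% did not overlap. The transfected material and the experiment cannot be told apart here, and no test was run on this contrast.

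The members differ in base composition, and base composition moved with the depletion effect across all genes. Transcript GC content was known for 15263 genes (89.4% of those listed) and for all 10 members. Among genes split by GC content into 10 bins of equal size, the median depletion log2 fold change went from -0.11 in the lowest bin to 0.26 in the highest, and the median overexpression log2 fold change from 0.025 to -0.081. MAGOHB at 36.9% GC, PNN at 40.3% and MAGOH at 41.8% were the most AT-rich members and had negative depletion estimates, while PYM1 at 55.3%, RNPS1 at 54.4%, ACIN1 at 53.1%, CASC3 at 51.1% and EIF4A3 at 49.4% had positive ones. The members in between went against this order, with a positive estimate for RBM8A at 43.5% GC (0.066) and a negative one for SAP18 at 44.5% (-0.049). Over the 10 members, GC content and depletion log2 fold change correlated at r = 0.688 (Spearman's rho 0.648), given as a description of 10 genes measured in the same libraries. All 10 members lay between the lower and upper quartile of the depletion log2 fold changes of genes in their own GC bin, and 6 of 10 did so in overexpression. In depletion MAGOH did so only narrowly, at -0.1364 with a lower quartile of -0.1371. With the trend on GC content and length taken out, the depletion estimates ran from -0.10 to 0.073, and again 0 of 10 members passed an unadjusted p of 0.05 in limma, beside 23.7% of 12510 genes. MAGOH moved from -0.14 to -0.047 and ACIN1 from 0.14 to 0.018. What part base composition has in these estimates was not tested.

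**Figure D4:**
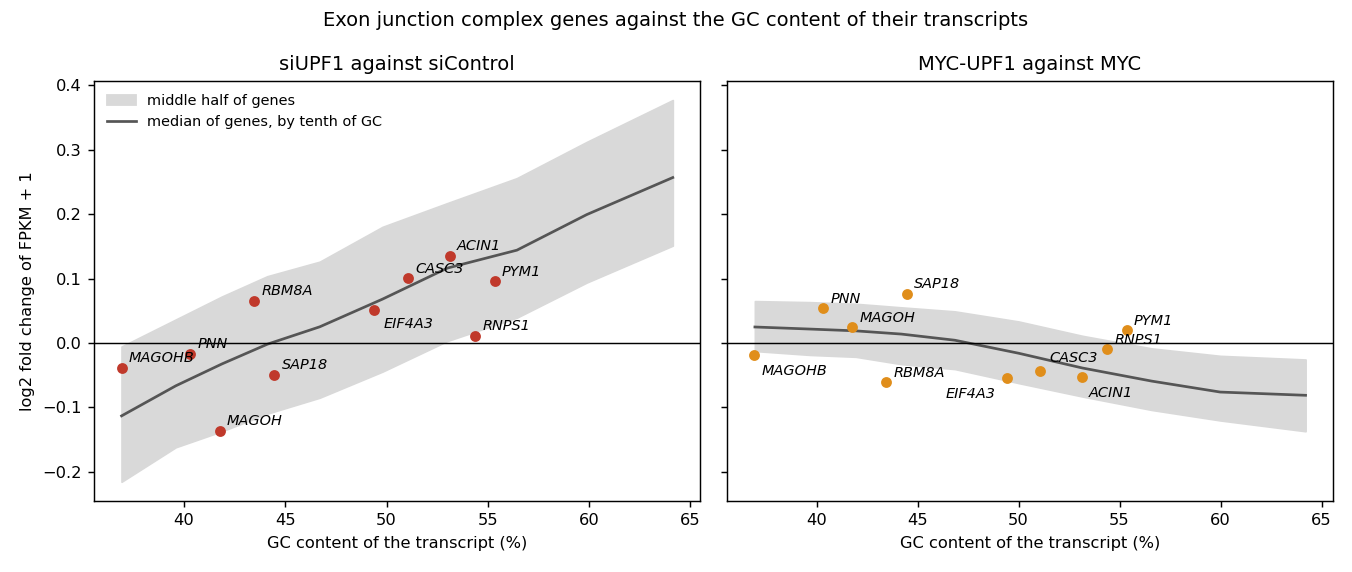
Log2 fold change against transcript GC content in percent, with the median (line) and the range between lower and upper quartile (grey band) of all genes in each GC bin and the 10 members as labelled points, for depletion (left) and overexpression (right). The depletion medians climb from -0.11 to 0.26 with GC content. All 10 members lie between the quartiles of their own bin. The band joins these quartiles by straight lines between bins, so RNPS1 (0.011, lower quartile of its bin 0.0031) plots just below it.

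The other members are protein-coding genes spread over 6 chromosomes of GRCh37. Of the core, EIF4A3 lies at chr17:78108168-78120950 on the minus strand (12 exons), RBM8A at chr1:145507415-145513536 on the plus strand (6 exons) and CASC3 at chr17:38296571-38328424 on the plus strand (14 exons). RNPS1 lies at chr16:2303117-2318398 (minus, 8 exons), ACIN1 at chr14:23527773-23564823 (minus, 19 exons), PNN at chr14:39644387-39652424 (plus, 9 exons), SAP18 at chr13:21714258-21723236 (plus, 4 exons) and PYM1 at chr12:56295197-56326402 (minus, 3 exons). NMD-sensitive isoforms of the members could not be followed, because the values are per gene. GENCODE annotates 10 of the 112 transcripts of the members as NMD targets, in 4 genes. These are 5 of 11 transcripts of MAGOHB, 2 of 10 of CASC3, 2 of 23 of ACIN1 and 1 of 26 of RNPS1. Some neighbours and copies could share fragments with members. RBM8B, a copy of RBM8A, was listed at 2.74 to 3.67 FPKM, RNPS1P1 at 0.257 to 0.487 FPKM and MAGOH2P at 0.275 to 0.912 FPKM. On the opposite strand, GNRHR2 overlaps RBM8A (0.101 to 0.251 FPKM), DGKA overlaps PYM1 (0.672 to 1.20 FPKM) and C14orf119 overlaps ACIN1 by 110 bases (8.67 to 12.2 FPKM). The library kit marks strand, but whether the counting used it is not given in the sources used here.

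Partners outside the complex, taken from a list of factors that assemble it, read it or resemble EIF4A3, included 3 higher and 2 lower mRNAs after depletion. Of 18 partners outside the complex, 3 rose and 2 fell in depletion at an unadjusted p of 0.05, and 0 passed the adjusted level, beside 16% of all genes that rose and 5.51% that fell, so the share of partners that rose was close to that of all genes. Once the trend on GC content and length was taken out, 6 of 18 partners passed the unadjusted level, 2 higher (UPF2 and UPF3B) and 4 lower (CWC27, SRSF7, EIF4A1 and the export helicase DDX39B, which is named here after its values were seen), beside 23.7% of all genes. Before that trend was taken out, the median depletion log2 fold change of the 18 was -0.012, beside 0.057 over all genes. In overexpression 0 of 18 passed the unadjusted level, beside 1.43% of all genes, and their median was -0.022, beside -0.014 over all genes. UPF2, which bridges UPF1 and UPF3B, stood at 10.5 and 10.8 FPKM in siControl and at 13.4 and 15.4 FPKM in siUPF1. Both treated libraries lay above the controls, and UPF2 rose by a log2 fold change of 0.40 (SE 0.102, limma adjusted p = 0.117). UPF3B, the NMD factor that binds the assembled complex directly, stood at 7.87 and 8.33 FPKM in siControl and at 10.2 and 11.5 FPKM in siUPF1 and rose by 0.38 (SE 0.0991, limma adjusted p = 0.118). Without siControl 1 the rise of UPF3B missed the unadjusted level (log2 fold change 0.35). SMG6, the endonuclease of NMD, which can bind the complex, stood at 3.38 and 2.90 FPKM in siControl and at 4.01 and 4.50 FPKM in siUPF1. SMG6 rose by 0.35 (SE 0.107, limma adjusted p = 0.149), but missed the unadjusted level with the GC and length trend taken out (log2 fold change 0.19) and without siControl 2 (0.26).

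UPF3A, the paralogue of UPF3B, stood at 18.1 and 21.6 FPKM against 21.4 and 24.9 FPKM, with overlapping groups (log2 fold change 0.21, limma adjusted p = 0.346). Without siUPF1 1, which left a lone siUPF1 library, the log2 fold change of UPF3A was 0.32. CWC22, which brings EIF4A3 to the spliceosome, stood at 9.25 and 9.45 FPKM against 8.97 and 9.19 FPKM, a difference within its error (log2 fold change -0.038, SE 0.0887). CWC27, its partner in the spliceosome, stood at 10.9 and 10.99 FPKM in siControl and at 9.44 and 8.46 FPKM in siUPF1 and fell by 0.27 (SE 0.0959, limma adjusted p = 0.187). SRSF7, an SR splicing protein, stood at 56.0 and 59.1 FPKM in siControl and at 49.9 and 41.3 FPKM in siUPF1 and fell by 0.34 (SE 0.115, limma adjusted p = 0.174). The falls of CWC27 and SRSF7 missed the unadjusted level without siControl 1 (-0.27 and -0.37), without siControl 2 (-0.26 and -0.30) and without siUPF1 2 (-0.20 and -0.20). CWC27 also missed it with all 8 libraries in 1 fit (-0.27). The translation helicases that resemble EIF4A3 fell short of the unadjusted level as tested. EIF4A1 stood at 480 and 498 FPKM against 449 and 414 FPKM (log2 fold change -0.18, limma adjusted p = 0.313) and EIF4A2 at 167 and 175 FPKM against 173 and 145 FPKM (-0.11, limma adjusted p = 0.578). EIF4A1 was past the unadjusted level with median centring (-0.22), with the GC and length trend taken out (-0.23) and with all 8 libraries in 1 fit (-0.18). Without siUPF1 1 the log2 fold change was -0.24 for EIF4A1 and -0.24 for EIF4A2, again with a lone siUPF1 library.

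**Figure D5:**
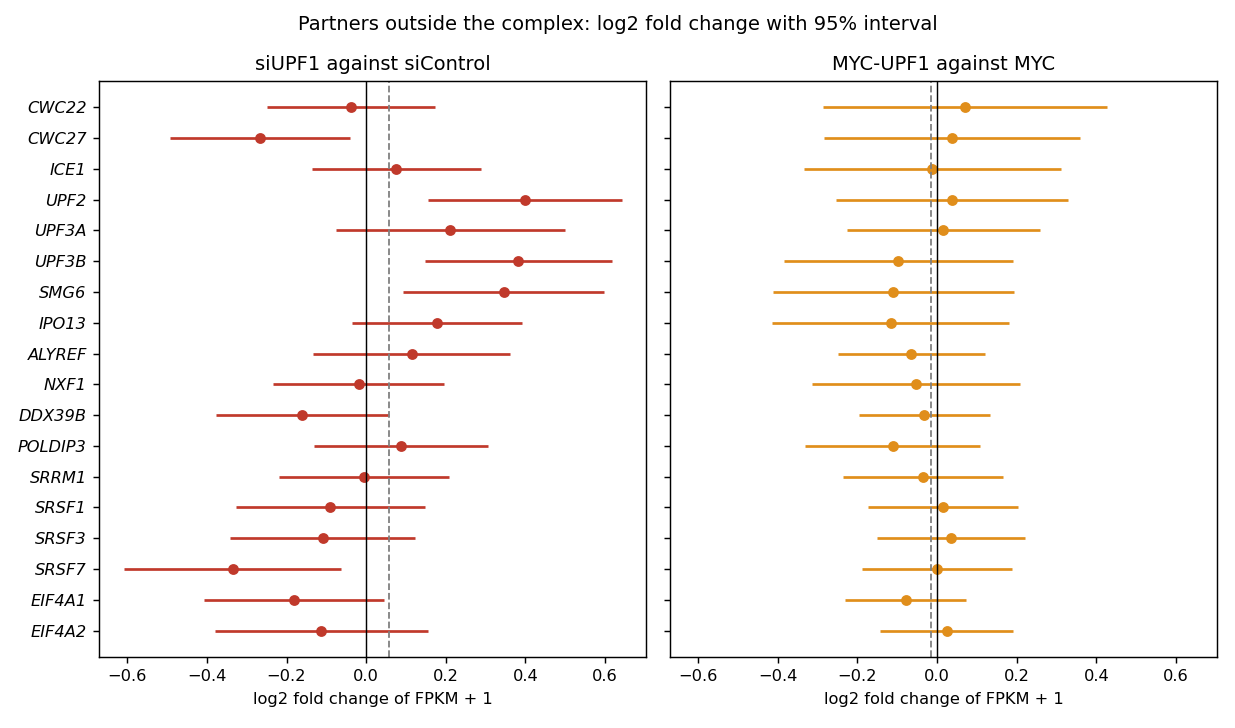
Log2 fold change on the log2(FPKM + 1) scale of the 18 partners outside the complex, treated minus control, with 95% confidence intervals from limma, for depletion (left) and overexpression (right), a solid line at 0 and a dashed line at the median of all genes tested. In depletion the intervals of UPF2, UPF3B and SMG6 lie above 0 and those of CWC27 and SRSF7 below 0, and in overexpression all 18 include 0.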

How the data were processed

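The authors prepared stranded mRNA libraries from Huh7 cells, trimmed the reads, aligned them to hg19 (GRCh37) with HISAT2 2.1.0, assembled transcripts with StringTie 1.3.4d against NCBI annotation and deposited FPKM per gene and library. The submitters' processing notes also name Trimmomatic 0.38 and FastQC 0.11.7. All 17076 genes had values above 0, and no whole reads could be recovered (the commonest ratio between libraries covered 0.784% of 638 low genes), so depth is unknown and no count model was run. Comparisons within each experiment used limma 3.58.1 (R 4.3.3; lmFit, eBayes with the trend option) on log2(FPKM + 1), a scale that understates changes of low genes. Genes with a mean of at least 0.5 FPKM over the 4 libraries were tested and p-values adjusted by Benjamini-Hochberg over all of them. The difference between effects used all 8 libraries. Ratios were compared with two-sided exact permutation tests. The scripts were tested on simulated data. All members were named, with UPF1, UPF3A, UPF3B, UPF2, CWC22, EIF4A1, EIF4A2, any of the 18 partners past the unadjusted level, and the 3 genes most correlated with EIF4A3, MAGOH and RBM8A. The members and lists were chosen with earlier results of these data known. Sequences and coordinates came from GRCh37 with GENCODE release 44. The alternatives tried were quantile normalization, median centring, removal of the GC and length trend, no FPKM minimum or one of 5, a pseudocount of 0.1, a replicate block, no variance trend, all 8 libraries in 1 fit and leaving out each library. A crossed pairing was added after seeing the data.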

Additional observations from a re-analysis of the deposited data

Results flagged for a closer look

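For 3 partners of the complex the depletion effect differed from the overexpression effect at an unadjusted p of 0.05 in limma, out of 18 partners and 10 members tested, and none of the 28 passed after Benjamini-Hochberg adjustment over 13412 genes. At this level 15.2% of all genes differed. For UPF3B the difference, depletion effect minus overexpression effect, was 0.48 on the log2 scale (SE 0.159, limma adjusted p = 0.225). In depletion its groups did not overlap, and in overexpression it stood at 7.24 and 6.25 FPKM in MYC and at 5.81 and 6.66 FPKM in MYC-UPF1. The difference missed the unadjusted level without siControl 1 (0.44), MYC 1 (0.39) or MYC-UPF1 1 (0.40).

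For SMG6 the difference was 0.456 (SE 0.172, limma adjusted p = 0.264). It missed the level with quantile normalization (0.38), median centring (0.41), the GC and length trend removed (0.25) or the replicate block (0.46), and without siControl 2, siUPF1 2, MYC 2 or MYC-UPF1 2 (0.37, 0.39, 0.36 and 0.36). For SRSF7 the difference was -0.335 (SE 0.141, limma adjusted p = 0.307). It missed the level with the replicate block, without the variance trend, and in 7 of the 8 fits that left out 1 library, with values from -0.37 to -0.20 in those 7.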

How the results depend on the processing

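Depth and counting error are unknown, and with 2 libraries per group the spread rests on variance shared over genes. The count of members past either level was 0 in both comparisons and in their difference under every alternative run other than leaving out siUPF1 1, where 3 passed the unadjusted level in depletion. Leaving out each library in turn gave 0 to 3 members past the unadjusted level in depletion, with a member median of 0.0058 to 0.053 (-0.037 to -0.0049 relative to all genes) and a MAGOHB share difference of -0.605 to 2.36 points. In overexpression the member median ran from -0.067 to 0.040 (-0.035 to 0.038 relative to all genes) and the share difference from -0.511 to -0.282 points. The depletion member median of 0.031 became -0.0082 with median centring, -0.0026 with quantile normalization and, after removal of the GC and length trend, 0.0032 (0.0043 relative to all genes).

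Counts over all genes depended more on the processing. In depletion 5 genes passed the adjusted level, against 0 without an FPKM minimum, 316 at a minimum of 5 FPKM, 0 with quantile normalization, 0 with median centring, 377 with all 8 libraries in 1 fit and 429 with the GC and length trend removed. The 2908 genes past the unadjusted level became 1862 at the minimum of 5 FPKM. In overexpression 1 gene passed the adjusted level, against 2 with the pseudocount of 0.1 and 2 with the trend removed, and the 189 past the unadjusted level became 409 with no minimum, 49 at 5 FPKM and 359 with the trend removed. Leaving out 1 library gave 121 to 4546 and 1443 to 5901 genes in depletion at the adjusted and the unadjusted level, and 5 to 63 and 216 to 777 in overexpression. The cause was not tested.

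The replicate numbers did not pair the samples: deviations of libraries with the same number correlated at -0.129 in depletion and -0.569 in overexpression. With a replicate block 0 genes in depletion and 20 in overexpression passed the adjusted level, and with the trend removed as well 643 and 5 did, among them UPF2 (adjusted p = 0.0326) and UPF3B (adjusted p = 0.0294) in depletion, where UPF3A (0.17) and EIF4A1 (-0.23) were past the unadjusted level. No member passed with the block. A crossed pairing, added after seeing the data, gave 90 and 32 genes at the adjusted level, and 1227 at the unadjusted level in overexpression.

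Small estimates changed sign. In depletion RNPS1 became -0.015 with quantile normalization, -0.028 with median centring and -0.10 with the trend removed, and the last setting, with or without the replicate block, also turned EIF4A3 (-0.0059), MAGOHB (0.073), PNN (0.039), PYM1 (-0.017) and CWC22 (0.018). In overexpression RNPS1 became 0.036 (quantile) and 0.023 (trend removed), SRSF7 0.040 (quantile) and 0.0074 (median centring), MAGOH -0.018 and EIF4A2 -0.0068 (trend removed). Differences between the effects became -0.051 (quantile), -0.027 (median centring) and -0.12 (trend removed) for RNPS1, and 0.13 for MAGOHB, 0.0073 for PNN and -0.064 for PYM1 with the trend removed. Leaving out 1 library turned 43 values, within these ranges: in depletion RNPS1 -0.041 to 0.063, PNN -0.071 to 0.038, MAGOHB -0.23 to 0.15, SAP18 -0.14 to 0.043, PYM1 -0.036 to 0.23 and EIF4A2 -0.24 to 0.015. In overexpression EIF4A3 -0.18 to 0.073, MAGOH -0.045 to 0.093, MAGOHB -0.089 to 0.050, CASC3 -0.13 to 0.043, RNPS1 -0.11 to 0.095, ACIN1 -0.16 to 0.052, PNN -0.12 to 0.23, PYM1 -0.022 to 0.062, CWC22 -0.12 to 0.26, CWC27 -0.15 to 0.23, UPF2 -0.089 to 0.16, UPF3A -0.059 to 0.091, SRSF7 -0.030 to 0.029 and EIF4A2 -0.013 to 0.061. For the differences between the effects RNPS1 -0.084 to 0.13, MAGOHB -0.21 to 0.17, PYM1 -0.056 to 0.21, EIF4A3 -0.022 to 0.23 and PNN -0.25 to 0.11.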
